A study of Mus musculus with 9 samples.

Results

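The Hox genes encode homeodomain transcription factors and lie in 4 clusters, HoxA to HoxD, on mouse chromosomes 6, 11, 15 and 2. All genes whose symbol is Hoxa, Hoxb, Hoxc or Hoxd followed by a number alone were considered. Values are given for 37 of them, among 19937 measured genes in all: 10 in HoxA, 9 in HoxB, 9 in HoxC and 9 in HoxD. Hoxb8 shared its probe set with Hoxb7, so it has no value here. Probe sets shared between genes were left out. Each of the 37 genes then had 1 probe set, so no choice among unshared probe sets entered their values.

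The cells were a murine acute myeloid leukaemia line that carries the fusion oncogene MLL-AF9 together with the activated Ras allele NrasG12D, on a B6/SJL (CD45.2) background. They were grown in RPMI1640 with serum and transduced with an MSCV retrovirus in the LMN vector, and the titles place every array at day 5. The 3 groups received an shRNA against Eed, an shRNA against Suz12 or a control shRNA against Renilla luciferase (Rluc), an enzyme that mouse cells do not make, with 3 Affymetrix arrays each. Both oncogenes and the vector were therefore common to the controls and the knockdowns. The titles give 1 shRNA name per target and 1 cell line, and nothing tells separate transductions from repeat arrays of 1 culture. The p-values therefore measure the spread between these arrays, which may be technical.

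In development the Hox genes are switched on along each cluster, from the low-numbered to the high-numbered end, and set the identity of cells along the body axis. In blood, HoxA and some HoxB genes are active in stem and early progenitor cells and are turned down as myeloid cells mature. MLL-type histone methyltransferases keep Hox genes active and Polycomb complexes keep them silent. PRC2, whose core subunits include Eed and Suz12, methylates histone H3 on lysine 27. MLL fusion proteins such as MLL-AF9 bind the HoxA cluster and keep Hoxa9 and its cofactor Meis1 high in leukaemia. Lowering Eed and Suz12 in such cells asks, among other things, what the Hox genes do when the complex that silences them elsewhere is reduced.

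Hoxa7 was the only member that passed the test against the controls, under Suz12 shRNA alone and not in every way of processing. Hoxa9 is the best-known Hox gene of this leukaemia, and Meis3 the Hox cofactor gene with the largest change. The upstream sequences of these 3 genes are given, since the results below name them. Each is the stretch of 250 bases just before a transcription start site in RefSeq (GRCm38.p6), read 5′ to 3′ on the gene's strand, with CG pairs in capitals, since unmethylated CG-rich DNA is where Polycomb complexes are commonly recruited in mammals. The Hoxa7 window lies at chr6:52218574-52218823 on the minus strand, the Hoxa9 window at chr6:52227371-52227620 on the minus strand and the Meis3 window at chr7:16175145-16175394 on the plus strand.
Hoxa7: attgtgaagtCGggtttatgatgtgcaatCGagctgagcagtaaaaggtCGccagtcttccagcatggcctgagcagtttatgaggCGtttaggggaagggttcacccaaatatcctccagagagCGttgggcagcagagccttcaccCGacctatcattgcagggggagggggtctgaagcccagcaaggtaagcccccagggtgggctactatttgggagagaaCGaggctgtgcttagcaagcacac
Hoxa9: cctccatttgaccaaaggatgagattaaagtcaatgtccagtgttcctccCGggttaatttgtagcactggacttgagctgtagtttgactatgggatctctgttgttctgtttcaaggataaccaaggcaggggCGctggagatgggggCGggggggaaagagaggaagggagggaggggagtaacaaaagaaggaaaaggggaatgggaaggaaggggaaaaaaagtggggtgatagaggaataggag
Meis3: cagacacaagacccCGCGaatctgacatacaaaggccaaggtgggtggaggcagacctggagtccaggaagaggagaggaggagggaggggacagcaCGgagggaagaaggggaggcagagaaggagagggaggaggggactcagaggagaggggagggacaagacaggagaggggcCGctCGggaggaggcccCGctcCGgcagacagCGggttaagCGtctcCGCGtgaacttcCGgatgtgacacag
The Hoxa7 window holds 7 CG pairs, that of Hoxa9 holds 3 and that of Meis3 holds 12. Of 32851 windows of this length in the table, 53.7% held fewer CG pairs than the Hoxa7 window, 29.0% fewer than the Hoxa9 window and 66.5% fewer than the Meis3 window. The table held 23 windows for 21 of the 37 Hox genes, with 2 to 35 CG pairs and a median of 13, beside a median of 6 over all windows. The Hox-Pbx motif TGATTNAT, searched on both strands, stood in 2 of the 23 Hox windows (8.70%), 1 of Hoxa2 and 1 of Hoxd11, and in 2.82% of all windows. None of the 3 windows shown holds those letters, which says nothing about the factors.

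RMA values carry no detection call, so the levels were read against a guide to background. This guide was the 95th percentile of the group means of 1015 olfactory receptor genes, most of which are silent outside the nose, and stood at 6.33 in the controls, 6.33 under Eed shRNA and 6.35 under Suz12 shRNA (log2). Against it, 16 of the 37 Hox genes lay above background in the controls: 6 of HoxA, 7 of HoxB, 0 of HoxC and 3 of HoxD. Each knockdown group had 17, the added gene being Hoxa13 in both. The same 16 genes lay above the guide on all 9 arrays, 15 genes on none, and 6 on some of the arrays. Above background here means only above this guide, which is no call of expression. In 1 group or more 17 of the 37 Hox genes lay above it, beside 13486 of all 19937 genes. Probe sets bind with different efficiency, so a level was set against the guide and against the same gene in other groups, and never against another gene's level.

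**Figure D1:**
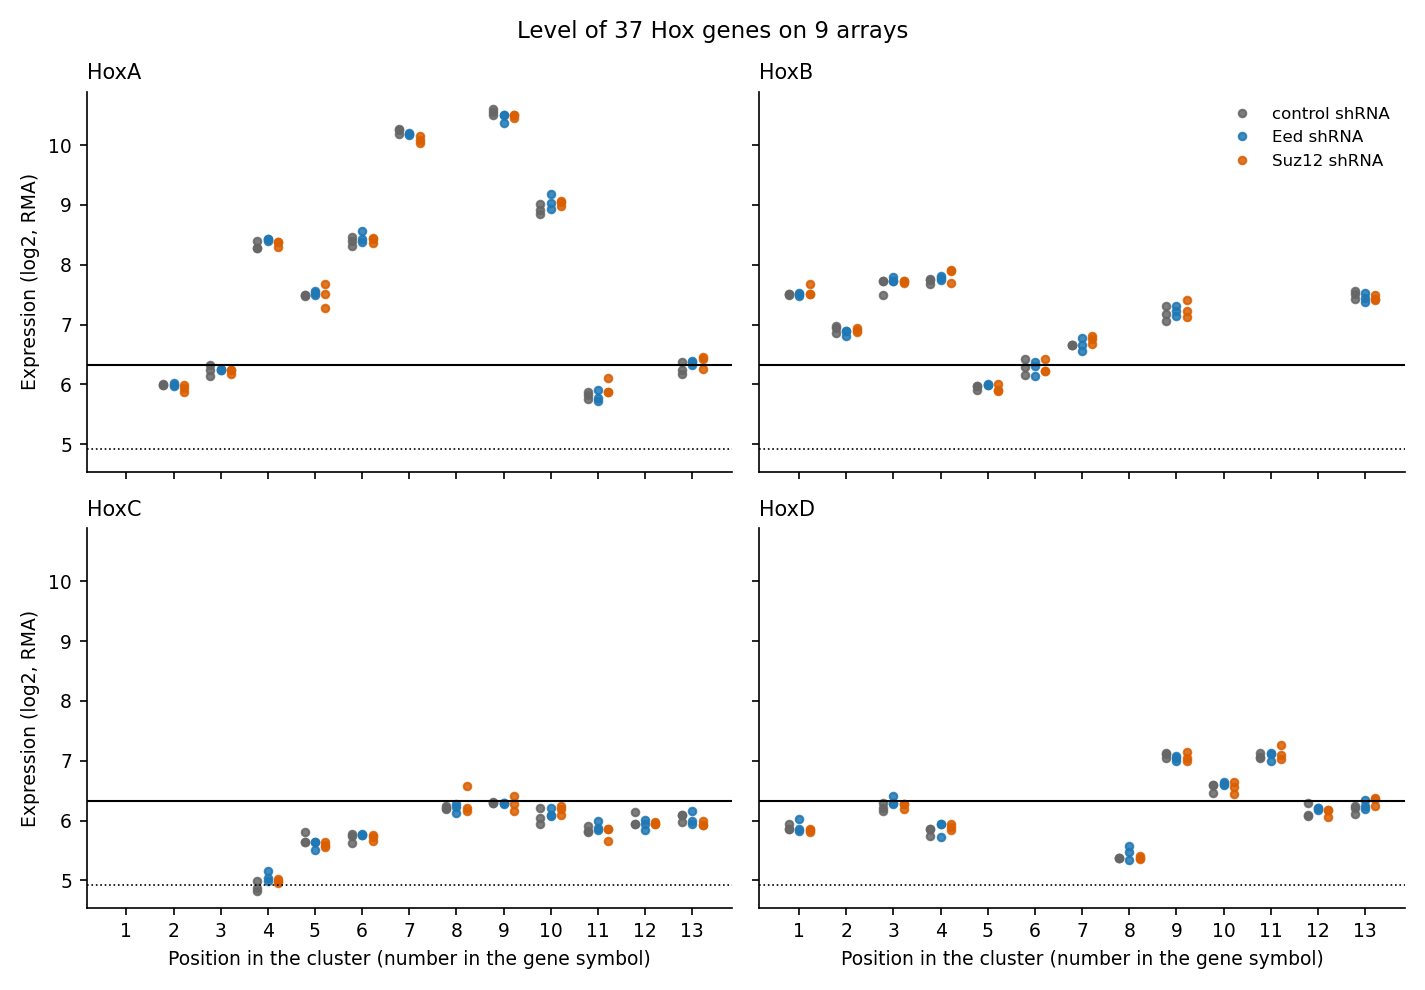
Level of 37 Hox genes on each of 9 arrays (log2, RMA), by position in the 4 clusters; grey points are control shRNA, blue Eed shRNA and orange Suz12 shRNA arrays. The solid line is the 95th percentile (6.33) and the dotted line the median (4.92) of 1015 olfactory receptor genes in the controls; Hoxa4 to Hoxa10 stand above the solid line, all HoxC genes lie near or below it, and the 3 groups of each gene lie close together.

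In HoxA, the genes above background formed an unbroken run of measured positions from Hoxa4 to Hoxa10, with both ends of the cluster near or below the guide. Hoxa9, which drives self-renewal of myeloid progenitors and is a direct target of MLL fusions, stood at 10.55, 10.50 and 10.60 in the controls, 10.37, 10.50 and 10.50 under Eed shRNA, and 10.50, 10.50 and 10.45 under Suz12 shRNA. Every array was far above the guide, and the knockdown arrays reached the lowest control value without exceeding it. Hoxa10, another progenitor gene of the same leukaemias, stood at 8.91, 8.84 and 9.02 in the controls, 9.03, 8.94 and 9.18 under Eed shRNA, and 8.98, 9.05 and 9.06 under Suz12 shRNA. Its groups overlapped, with the control arrays toward the low side.

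The other genes of that run varied little. Hoxa4 ranged from 8.28 to 8.43 over the 9 arrays, Hoxa5 from 7.27 to 7.67 and Hoxa6 from 8.31 to 8.56. For Hoxa5 both extremes were Suz12 shRNA arrays, and the controls lay between 7.48 and 7.50. The anterior genes Hoxa2 and Hoxa3 and the posterior gene Hoxa11 were at or below the guide on every array, with control means between 5.82 and 6.23. Hoxa13, the most posterior member, had control values of 6.38, 6.17 and 6.24 and crossed the guide on 5 of 9 arrays, so its place above background in both knockdown groups rests on group means of 6.37 and 6.38 that exceed the guide only narrowly.

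In HoxB, 7 of 9 measured genes lay above the guide on all arrays: Hoxb1, Hoxb2, Hoxb3, Hoxb4, Hoxb7, Hoxb9 and Hoxb13. Hoxb4, known for expanding blood stem cells when overexpressed, stood at 7.76, 7.68 and 7.74 in the controls, 7.81, 7.74 and 7.77 under Eed shRNA, and 7.91, 7.69 and 7.89 under Suz12 shRNA. Hoxb3, its neighbour and also a progenitor gene, stood at 7.73, 7.72 and 7.49 in the controls, 7.79, 7.72 and 7.72 under Eed shRNA, and 7.70, 7.74 and 7.72 under Suz12 shRNA. In each of these genes 1 array stood apart from the other 2 of its group, Suz12 shRNA replicate 2 for Hoxb4 and control replicate 3 for Hoxb3.

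Control means of the remaining HoxB genes above background were 7.50 ± 0.01 for Hoxb1, 6.93 ± 0.06 for Hoxb2, 6.66 ± 0.00 for Hoxb7, 7.18 ± 0.12 for Hoxb9 and 7.50 ± 0.07 for Hoxb13 (log2, SD, n = 3). Hoxb13, the most posterior of the cluster, is separated from the rest by a long gap and is best known from the hindgut and prostate. Hoxb5 lay below the guide on every array, and Hoxb6 straddled it, above on 3 of 9. The set above the guide thus included the most anterior and the most posterior HoxB gene, with Hoxb5 below the guide and Hoxb6 astride it between them.

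HoxC had no member above the guide in any group, and HoxD had 3. Control means of the 9 HoxC genes ran from 4.89 (Hoxc4) to 6.30 (Hoxc9), and only single arrays of Hoxc8 and Hoxc9 crossed the guide. In Hoxc8 that array, Suz12 shRNA replicate 2 at 6.58, gave the largest within-group spread of any Hox gene (residual SD 0.14). The HoxD genes above background were neighbours in the middle to posterior part of the cluster: Hoxd9 at 7.10 ± 0.05, Hoxd10 at 6.55 ± 0.07 and Hoxd11 at 7.07 ± 0.04 in the controls (log2, SD, n = 3). These genes pattern limbs and the body axis. Hoxd10 was the lowest member above the guide, by 0.22, and Hoxc9 the highest below it in the controls, by 0.03.

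How many genes count as above background depends on where the guide is set. At the 99th percentile of the olfactory receptor genes (7.24 in the controls) 10 Hox genes lay above it in each group, in the controls 6 of HoxA, 4 of HoxB and 0 of HoxD. At their median, 36 lay above it in the controls and 37 in each knockdown.

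Both shRNAs lowered their targets. Eed fell by 1.75 under Eed shRNA and Suz12 fell by 1.98 under Suz12 shRNA (log2, limma adjusted p = 3.1e-07 and 5.44e-08). A dimmer probe set of Eed did not follow, at 0.16 under Eed shRNA and 0.03 under Suz12 shRNA, so the check of the Eed label rests on the brighter one. All 12 myeloid markers (among them Mpo, Elane, Kit and Spi1) lay above the guide in every group. Of these 10 were called in each knockdown, 4 higher and 6 lower, a called share of 83.3%. Over all genes 21.8% and 21.2% were called under Eed and Suz12 shRNA. Among genes above the guide in 1 group or more the shares were 31.6% and 30.4%. The called markers included the integrin gene Itgam at 0.70 and 0.69 and the granulocyte factor gene Cebpa at -0.73 and -0.82. The part of these marker changes in the other values was not tested. Of 12 fibroblast and stromal markers 8 lay above the guide, of 4 B cell markers 1 did, of 4 T cell markers 2 did and of 3 erythroid markers 3 did. The mean level of the fibroblast and stromal list over its genes ran from 6.76 to 6.84 on the control arrays, 6.86 to 6.93 under Eed shRNA and 6.87 to 6.95 under Suz12 shRNA. Of that list Pdgfrb rose by 0.66 and 0.63, no other member was called (a called share of 8.33%), and Pdgfra, Dcn, Lum and Prrx1 lay below the guide. Of the erythroid list Epor was called under Eed shRNA alone, at 0.22 (limma adjusted p = 0.0241). No B cell or T cell marker was called in either comparison with the control. The part of these other markers in any result was not tested. In these bulk samples, fewer cells of a type and less RNA per cell cannot be told apart.

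Differences of the Hox genes from the controls were small in both knockdowns. Under Eed shRNA 0 of 37 passed a limma adjusted p of 0.05, and 1 had an unadjusted p under 0.05. Over all genes 21.8% were called in that comparison, and 31.6% of the 13486 genes above the guide in 1 group or more. Under Suz12 shRNA 1 of 37 was called, Hoxa7, and 2 had an unadjusted p under 0.05, beside 21.2% of all genes and 30.4% of those above the guide called. Of the 17 Hox genes above the guide in 1 group or more, 0 were called under Eed shRNA and 1 (5.88%) under Suz12 shRNA. Of olfactory receptor genes only 0.0985% and 0.493% were called. Whether low signal kept dim Hox members from being called was not tested. With both knockdowns averaged against the control 0 of 37 passed the limma test (2 at an unadjusted p under 0.05), beside 25.2% of all genes. Between Suz12 shRNA and Eed shRNA 0 of 37 passed (1 at an unadjusted p under 0.05), beside 0.176% of all genes.

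For genes above the guide, the intervals show how small a change these arrays leave room for, given a spread between them that may be technical. For all 37 genes the 95% interval of the change lay inside a 1.25-fold change in either direction, in each of the 4 contrasts. The same held for 78.3% of all genes and 69.9% of genes above the guide under Eed shRNA, and for 78.9% and 71.4% under Suz12 shRNA. It also held for 95.5% and 93.6% of olfactory receptor genes under Eed and Suz12 shRNA. For Hox genes at or below the guide, such an interval is therefore what dim probe sets usually give. The 17 Hox genes above the guide in 1 group or more all lay inside the bound. Under Eed shRNA the outermost bounds were a 1.17-fold fall for Hoxc5 and a 1.22-fold rise for Hoxc4. Under Suz12 shRNA they were a 1.18-fold fall for Hoxa7 and a 1.24-fold rise for Hoxc8. The median size of the change, regardless of sign, was 0.05 on the log2 scale for the Hox genes under Eed shRNA, 0.07 for all genes and 0.04 for olfactory receptor genes. Under Suz12 shRNA these medians were 0.06, 0.07 and 0.04.

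**Figure D2:**
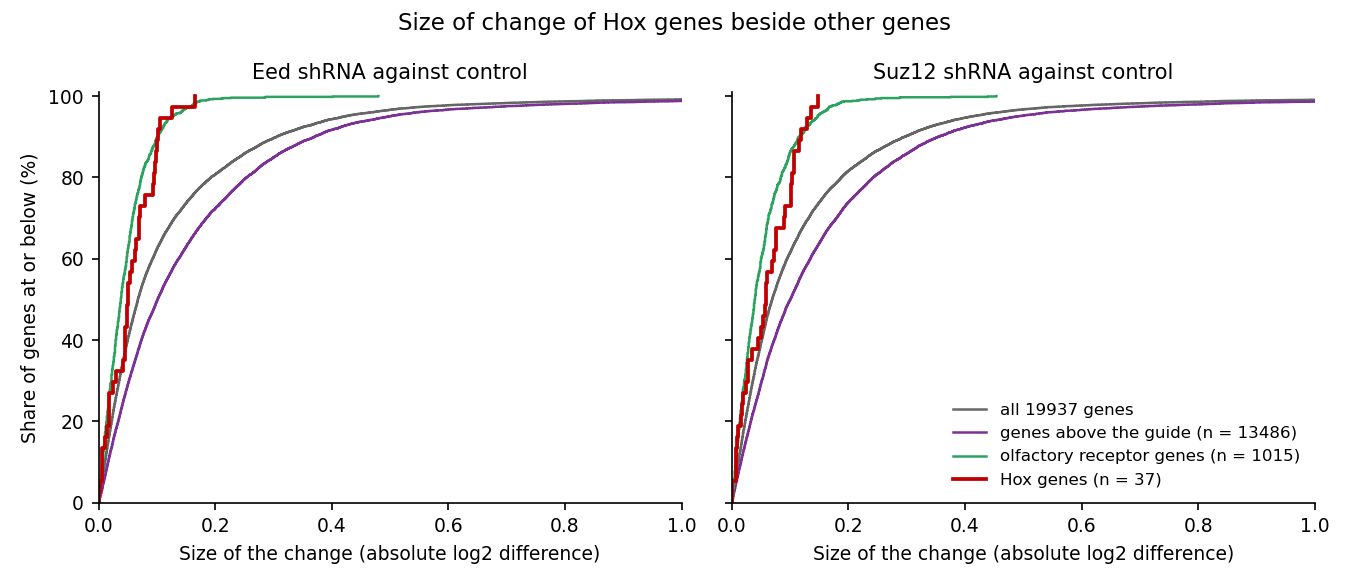
Share of genes (%) whose change against control shRNA is at or below a given size (absolute difference of mean log2 values), under Eed shRNA (left) and Suz12 shRNA (right). The curve of the 37 Hox genes (red) ends at 0.17 and 0.15; the curves of all 19937 genes (grey) and of the 13486 genes above the guide (purple) reach far larger changes, and that of 1015 olfactory receptor genes (green) has the smallest median, 0.04.

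Hoxa7, a HoxA gene that MLL fusions keep active, was the member called. It stood at 10.27, 10.19 and 10.26 in the controls, 10.19, 10.17 and 10.21 under Eed shRNA, and 10.15, 10.04 and 10.09 under Suz12 shRNA. The Suz12 shRNA arrays lay below every other array, and the Eed shRNA arrays overlapped the lower end of the controls. It fell 1.11-fold under Suz12 shRNA (log2 change -0.15, 95% interval -0.24 to -0.05, SE 0.04, limma adjusted p = 0.0301). Under Eed shRNA the difference was -0.05 (adjusted p = 0.488), and between the knockdowns it was -0.10 (adjusted p = 0.816).

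That call was lost in 8 of 18 other ways of processing, over which the adjusted p ran from 0.023 to 0.128. It was lost when control replicate 1, control replicate 3, Suz12 shRNA replicate 2 or Suz12 shRNA replicate 3 was left out (-0.13, -0.14, -0.12 and -0.14), and after cyclic loess the change was -0.09. Without Suz12 shRNA replicate 2 the member called was instead Hoxb4, at 0.17 (limma adjusted p = 0.026).

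For the other Hox genes above background, no difference from the controls passed the test. Hoxa9 differed by -0.10 under Eed shRNA (95% interval -0.20 to 0.01, limma adjusted p = 0.219) and by -0.07 under Suz12 shRNA (-0.18 to 0.04, adjusted p = 0.401). The lower ends of these intervals for Hoxa9 are a 1.15-fold fall in the first comparison and a 1.13-fold fall in the second. They rest on the spread between these arrays, which may be technical, and Hoxa9 had only 5 different values over the 9 arrays. Hoxa10, the HoxA gene with the largest difference in the averaged contrast, was at 0.13 under Eed shRNA (-0.02 to 0.27) and 0.11 under Suz12 shRNA (-0.04 to 0.25). In HoxB that gene was Hoxb3, at 0.10 and 0.07, and Hoxb4 was at 0.05 and 0.11. These differences rest partly on single arrays. Without control replicate 3 Hoxb3 was at 0.02 and -0.01. Hoxa9 was at -0.05 under Eed shRNA without Eed shRNA replicate 1 and at -0.05 under Suz12 shRNA without control replicate 3. Hoxa10 was at 0.06 under Eed shRNA without Eed shRNA replicate 3 and at 0.07 under Suz12 shRNA without control replicate 2.

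Among the remaining members above the guide, Hoxa4 was at 0.09 and 0.03, Hoxa5 at 0.03 and -0.01, Hoxa6 at 0.07 and 0.02, and Hoxa13 at 0.10 and 0.11 under Eed and Suz12 shRNA. In HoxB, Hoxb1 was at 0.00 and 0.06, Hoxb2 at -0.06 and -0.02, Hoxb7 at 0.00 and 0.09, Hoxb9 at 0.05 and 0.08, and Hoxb13 at -0.05 and -0.06. In HoxD, Hoxd9 was at -0.06 and -0.03, Hoxd10 at 0.07 and 0.01, and Hoxd11 at 0.01 and 0.05. None of these values passed the test, and several signs this close to 0 turned in other ways of processing.

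**Figure D3:**
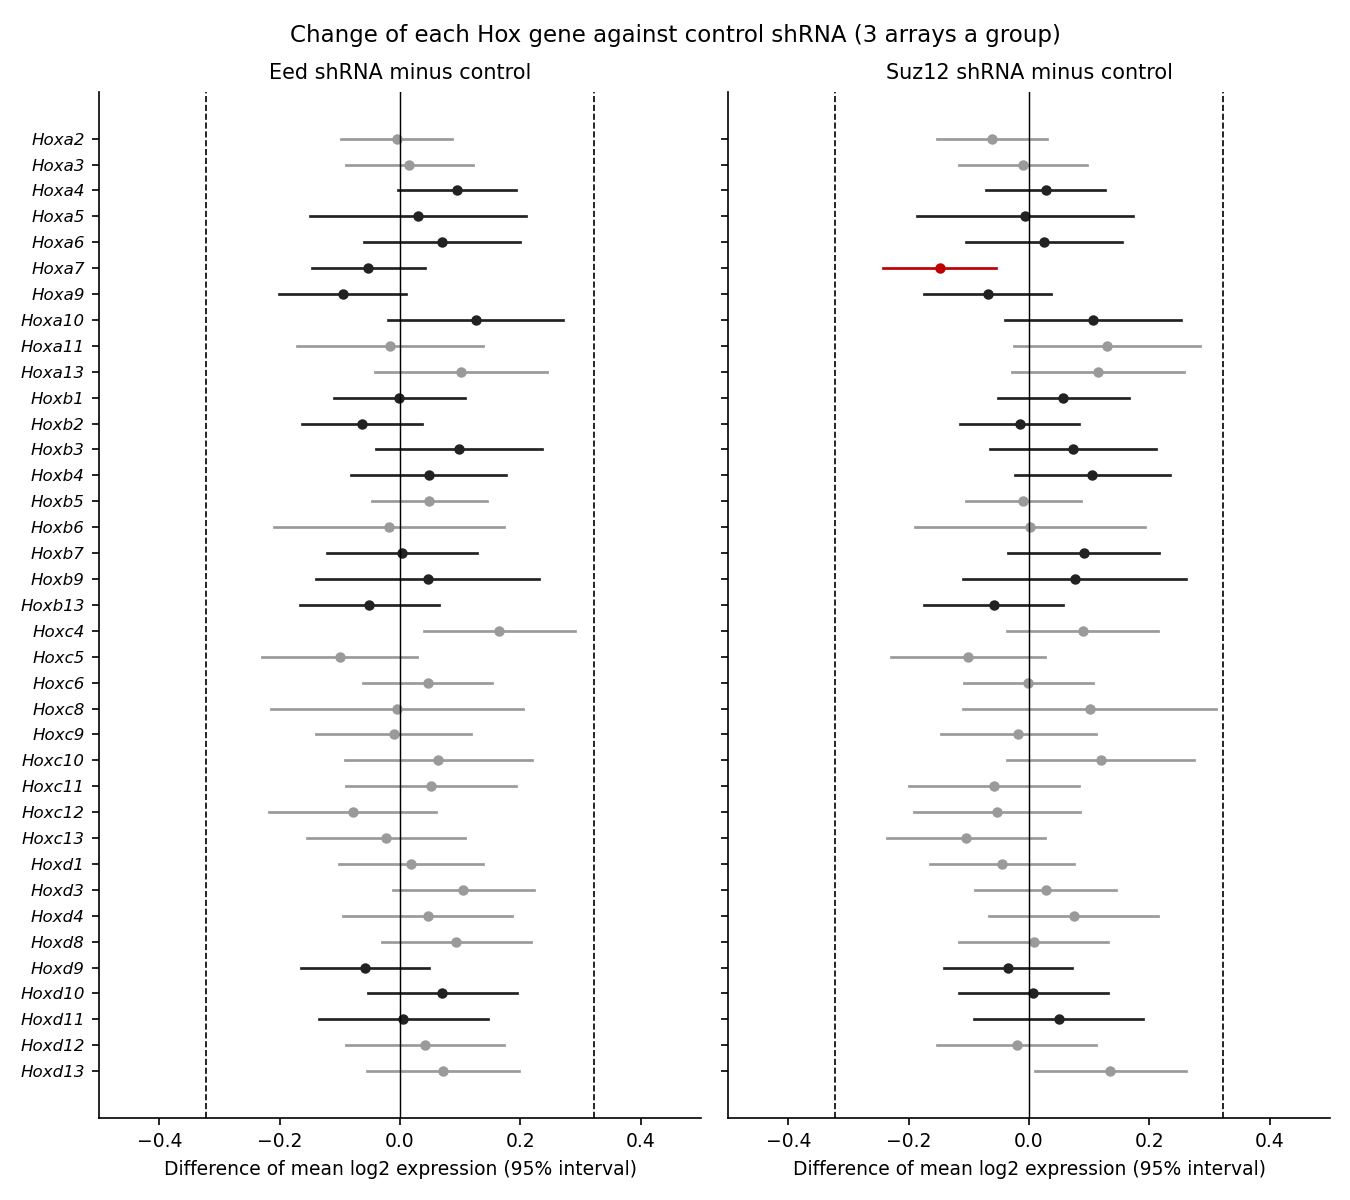
Difference of mean log2 expression from control shRNA for each of 37 Hox genes (points) with its 95% interval (bars) under Eed shRNA (left) and Suz12 shRNA (right), 3 arrays a group. Black marks genes above the guide on all 9 arrays, grey the others and red the called gene Hoxa7 at -0.15; every bar lies inside the dashed lines, a 1.25-fold change in either direction.

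No Hox gene at or below the guide was called in either comparison. Under Eed shRNA Hoxc4 came nearest, with 4.83, 4.98 and 4.87 in the controls and 5.16, 4.98 and 5.04 in the knockdown, a difference of 0.17 (limma adjusted p = 0.0635) in a gene far below the guide on every array. It passed the threshold in 4 of 17 other ways of processing, among them without control replicate 2 (0.21) or without Eed shRNA replicate 2 (0.20). Under Suz12 shRNA Hoxc4 differed by 0.09. Hoxd13, the most posterior HoxD gene, stood at 6.25, 6.22 and 6.11 in the controls, 6.35, 6.25 and 6.19 under Eed shRNA and 6.36, 6.37 and 6.25 under Suz12 shRNA, differences of 0.07 and 0.14 (adjusted p = 0.485 and 0.133).

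By cluster, the medians lay within 0.06 of 0 in both comparisons. The median change under Eed shRNA was 0.02 in HoxA, 0.00 in HoxB, -0.01 in HoxC and 0.05 in HoxD. Under Suz12 shRNA it was 0.01, 0.06, -0.02 and 0.01. Values above 0 numbered 6 of 10 in HoxA, 5 of 9 in HoxB, 4 of 9 in HoxC and 8 of 9 in HoxD under Eed shRNA, and 5, 6, 3 and 6 under Suz12 shRNA. The widest range was that of HoxC under Eed shRNA, from -0.10 to 0.17, and of HoxA under Suz12 shRNA, from -0.15 to 0.13. Over the 4 clusters 23 of 37 values were above 0 under Eed shRNA and 20 of 37 under Suz12 shRNA, with medians of 0.03 and 0.01 beside -0.01 and -0.02 over all genes. The Hox medians turned to -0.01 and -0.01 after quantile normalization and to -0.01 and -0.02 after centring on array medians, so their sign depends on the scaling. Arrays of the knockdown and the control did not overlap in 1 Hox gene under Eed shRNA (Hoxb5, higher) and in 2 under Suz12 shRNA (Hoxa7, lower, and Hoxb7, higher), beside 32.2% and 31.8% of all genes.

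The spread between arrays of a group was of the usual size in the Hox genes. Their median residual SD was 0.08 on the log2 scale, beside 0.07 over all genes and 0.07 over olfactory receptor genes.

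TALE homeodomain proteins (Meis, Pbx and Pknox) bind DNA together with Hox proteins, and 3 of their genes changed. Under Eed shRNA 2 of 8 measured rose and 1 fell, and under Suz12 shRNA 1 rose and 1 fell. The called share was 37.5% and 25%, beside 21.8% and 21.2% of all genes and 31.6% and 30.4% of genes above the guide, so a count of this size in 8 genes is no result about the list. Their median changes were 0.06 and 0.08. Meis3, a paralogue of Meis1, stood at 7.56, 7.73 and 7.44 in the controls, 8.51, 8.47 and 8.46 under Eed shRNA and 8.67, 8.53 and 8.56 under Suz12 shRNA. All 6 knockdown arrays lay well above the controls. It rose 1.87-fold under Eed shRNA (0.90, SE 0.07, limma adjusted p = 1.13e-05) and 2.02-fold in the Suz12 knockdown (1.01, SE 0.07, adjusted p = 5.17e-06).

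Meis1, the cofactor that accelerates Hoxa9-driven leukaemia, stood at 11.20, 11.09 and 11.08 in the controls, 11.33, 11.30 and 11.38 under Eed shRNA, and 11.24, 11.24 and 11.41 under Suz12 shRNA. The knockdown arrays were all higher than the controls, by a small margin. Meis1 rose by 0.21 under Eed shRNA (limma adjusted p = 0.021) and was at 0.17 under Suz12 shRNA (adjusted p = 0.0527). The first call was lost in 5 of 18 other ways of processing, among them without control replicate 2 (0.19) or 3 (0.19) and without Eed shRNA replicate 1 (0.22) or 3 (0.19). The Suz12 comparison was called in 5 of 18, after quantile normalization, cyclic loess, the filter on dim genes or limma-trend and without control replicate 1, with adjusted p from 0.0154 to 0.0372 there.

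Pknox1, which competes with Meis proteins for Pbx partners, went the other way, from 9.16 ± 0.06 in the controls to 8.97 ± 0.06 under Eed shRNA and 8.96 ± 0.07 under Suz12 shRNA (log2, SD, n = 3). It fell by 0.19 in both (limma adjusted p = 0.0232 and 0.0209), and each call was lost in 6 of 18 other ways of processing. In either comparison leaving out control replicate 2 or 3 ended it (-0.18 and -0.17 under Eed shRNA, -0.18 and -0.17 under Suz12 shRNA), as did leaving out Eed shRNA replicate 1 (-0.16) or 3 (-0.18), or Suz12 shRNA replicate 1 (-0.16) or 2 (-0.19). The Pbx genes, whose products are the common partners of Hox proteins, were not called: Pbx2 was at 0.11 and 0.09, Pbx3 at 0.02 and -0.04 and Pbx4 at 0.01 and -0.11. Meis2 and Pknox2 lay below the guide on every array and were not called.

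The ParaHox genes (Cdx, Gsx and Pdx1), an ancient sister set of which the Cdx factors act upstream of Hox genes, and the Evx genes, which sit beside HoxA and HoxD, showed nothing that passed. Of 8 measured, 0 were called by limma in either comparison (0 and 0 at an unadjusted p under 0.05), beside 21.8% and 21.2% of all genes, with differences from -0.05 to 0.08 under Eed shRNA and from -0.05 to 0.00 under Suz12 shRNA.

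Some genes just outside the clusters changed. Leaving out the Evx genes, the 5 nearest protein-coding genes on each side of each cluster gave 37 measured genes, of which 5 rose and 1 fell under Eed shRNA, and 4 rose and 1 fell under Suz12 shRNA. That is 6 and 5 of 37 called (16.2% and 13.5%), with median changes of -0.02 and -0.03. Over all genes 21.8% and 21.2% were called, and 31.6% and 30.4% of genes above the guide. The called share lay below both, so the count is no result about the flanks of the clusters. Beside HoxA, the adaptor gene Skap2, its immediate neighbour, stood at 10.97, 10.84 and 10.95 in the controls, 11.12, 11.24 and 11.13 under Eed shRNA and 11.26, 11.13 and 11.10 under Suz12 shRNA. It rose by 0.24 and 0.25 (limma adjusted p = 0.0105 and 0.0108), while Hoxa2, toward that end of the cluster, was at -0.01 and -0.06. On the other side of HoxA, Jazf1, a zinc finger gene, rose by 0.46 and 0.45 (adjusted p = 0.00196 and 0.00258).

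Near HoxD, Chn1, which encodes the Rac GTPase-activating protein chimaerin, stood at 5.63, 5.37 and 5.56 in the controls, 6.08, 6.05 and 6.04 under Eed shRNA and 6.40, 6.34 and 6.32 under Suz12 shRNA. It rose by 0.53 and 0.83 (limma adjusted p = 0.000173 and 9.04e-06), from below the guide to a level that crossed it on 1 array. Near HoxC, Cbx5, the gene of heterochromatin protein HP1 alpha, fell by 0.27 and 0.19 (adjusted p = 0.00117 and 0.00948), and Calcoco1, a coactivator gene, rose by 0.22 under Eed shRNA (adjusted p = 0.00875) and was at 0.14 under Suz12 shRNA (adjusted p = 0.0656). Near HoxB, the sorting nexin gene Snx11 rose by 0.18 in both (adjusted p = 0.0336 and 0.0346), with calls lost in 7 and 8 of 18 other ways of processing. These calls ended without any 1 of the controls (0.17 to 0.19 in either comparison) or without Eed shRNA replicate 3 (0.12) and, under Suz12 shRNA, without any 1 of the 3 Suz12 shRNA arrays (0.17 to 0.20).

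**Figure D4:**
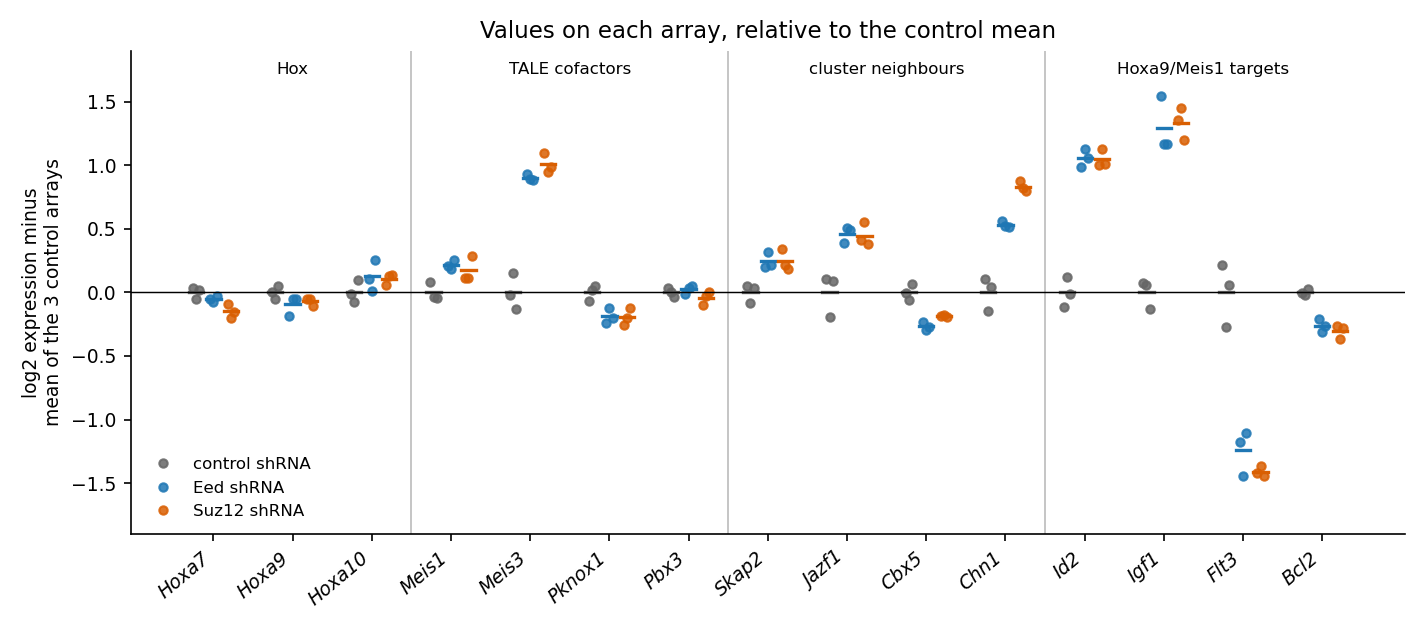
Log2 expression on each array minus the mean of the 3 control arrays, for Hoxa7, Hoxa9 and Hoxa10, 4 TALE cofactor genes, 4 cluster neighbours and 4 genes bound or regulated by Hoxa9 and Meis1; points are arrays, bars group means, grey control, blue Eed shRNA and orange Suz12 shRNA. Group means of the 3 Hox genes lie between -0.15 and 0.13, while Meis3, Id2 and Igf1 lie 0.90 to 1.34 above the control mean and Flt3 1.24 and 1.41 below it.

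Genes that Hoxa9 and Meis1 are known to bind or regulate in myeloid progenitors moved in both directions. Of 13 measured, 2 rose and 3 fell in each comparison with the control, with medians of 0.00 and -0.02. The called share was 38.5% in each, beside 21.8% and 21.2% of all genes and 31.6% and 30.4% of genes above the guide. A count of this size in 13 genes is no result about the list. Id2, an inhibitor of basic helix-loop-helix factors, rose 2.08-fold and 2.07-fold (limma adjusted p = 2.79e-06 and 2.65e-06), and the growth factor gene Igf1 rose 2.45-fold and 2.52-fold. The receptor tyrosine kinase gene Flt3 stood at 8.20, 7.70 and 8.04 in the controls, 6.80, 6.53 and 6.87 under Eed shRNA and 6.56, 6.62 and 6.53 under Suz12 shRNA. Its knockdown arrays fell to near the guide, 2.37-fold and 2.66-fold below the controls (limma adjusted p = 5.31e-05 and 2.18e-05).

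Smaller falls in that list were those of the survival gene Bcl2, by 0.26 and 0.30 (limma adjusted p = 0.00146 and 0.000719), the kinase gene Pim1 under Eed shRNA, by 0.48 (adjusted p = 0.0332), and Lmo2, a haematopoietic cofactor gene, under Suz12 shRNA, by 0.14 (adjusted p = 0.0274). Pim1 was at 9.25, 9.89 and 9.29 in the controls, and without control replicate 2 its change was -0.27. That call was lost in 8 of 18 other ways of processing, among them without any 1 of the Eed shRNA arrays (-0.44 to -0.54) and without Suz12 shRNA replicate 1 or 3. The Lmo2 call was lost in 6 of 18, among them without control replicate 2 or 3 (-0.12 and -0.14) and without Suz12 shRNA replicate 1 or 3 (-0.13 and -0.13). The progenitor genes Myb, Erg, Sox4, Cd34, Cdk6, Trib2 and Camk2d were not called in either comparison.

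Among regulators of Hox transcription, 5 of 27 measured rose and 5 fell under Eed shRNA, and 6 rose and 3 fell under Suz12 shRNA, the targets Eed and Suz12 included. The called share, 37% and 33.3%, was near the 31.6% and 30.4% of genes above the guide. Their median changes were -0.02 and -0.01. Bmi1, a PRC1 subunit gene, stood at 9.92, 9.68 and 9.99 in the controls, 10.45, 10.51 and 10.40 under Eed shRNA and 10.93, 10.56 and 10.50 under Suz12 shRNA, a rise of 1.51-fold and 1.74-fold (limma adjusted p = 0.00292 and 0.000551). Ring1, an E3 ligase gene of the same complex, fell by 0.22 and 0.21. On the activating side, Men1, whose product menin tethers MLL and its fusions to chromatin, fell by 0.20 in both (adjusted p = 0.00363 and 0.00433). Aff1, a gene of the super elongation complex, rose by 0.32 and 0.28 (adjusted p = 0.000821 and 0.00197). Kmt2a, the gene of MLL itself, was at 0.06 and 0.00 and was not called.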

How the data were processed

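Total RNA of 9 samples was labelled with biotin and hybridized to Affymetrix whole-transcript arrays. The authors deposited log2 values made by RMA, which combines the probes of a set over all arrays, per the submitters' processing notes; its version is not given in the sources used here. They run from 3.38 to 14.46, and the number of arrays limits their precision.

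The platform annotation named genes for 22961 of 34760 probe sets, and 21640 of those carried 1 symbol; 1321 with several were left out. Where a gene had several probe sets (954 genes), the one with the highest mean over the 9 arrays stood for it, giving 19937 genes. No filter on low values was used. Group means were fitted over the 9 arrays by limma 3.58.1 under R 4.3.3, using lmFit, then eBayes, with 6 residual degrees of freedom. The p-values were two-sided and adjusted by Benjamini-Hochberg over all genes of a contrast. A gene was called at an adjusted p under 0.05. Comparisons with the control share its arrays. The fit was tested on simulated data.

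Hox genes called or above the guide were named with values. The others were given by ranges, with the largest change in each cluster. List members were named if called in a comparison with the control, at most 6 per list by adjusted p in the averaged contrast. The uncalled Pbx genes, Kmt2a and the uncalled Hoxa9 and Meis1 targets were named after their values were seen. 1 further item is not reported here. The members and lists were chosen with earlier results of these data known. Promoter windows come from a RefSeq table (GRCm38.p6), without its 50 bases after the start. Replicate numbers were not used to pair the samples in the main fit. Alternatives were other scalings, a filter on dim genes, limma-trend, other probe sets, a replicate block, only the groups compared and leaving out each array.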

Additional observations from a re-analysis of the deposited data

How the results depend on the processing

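The count of Hox genes called under Eed shRNA, 0 of 37, was 1 after cyclic loess and 1 with limma-trend (Hoxc4 in both), and 0 to 2 when 1 array was left out, the 2 being Hoxc4 and Hoxd8 without Eed shRNA replicate 2. The count under Suz12 shRNA, 1 of 37, was 0 after quantile normalization, 0 after cyclic loess, 0 with only the 2 groups compared, 0 with every probe set tested on its own, and 0 to 1 when 1 array was left out. With both knockdowns averaged it was 0, and 1 after centring on array medians (Hoxa7), 1 after cyclic loess (Hoxa10) and 0 to 1 when 1 array was left out. An alternative chosen after seeing the data, an unadjusted p under 0.05, gave 1, 2 and 2. Between the knockdowns every adjusted alternative gave 0, and 1 had an unadjusted p under 0.05.

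A replicate block, with the title numbers as a term, gave 0, 1 and 0 calls in those comparisons and 0 between the knockdowns. Hoxa7 under Suz12 shRNA was then at a limma adjusted p of 0.0322. Deviations from the group means correlated by -0.17 to 0.20 over 9 same-numbered pairs of arrays and by -0.33 to 0.27 over 18 others. This showed no pairing by number, but so few arrays cannot exclude it. The count of Hox genes above the guide, 16 in the controls and 17 in each knockdown, was 36, 37 and 37 at the olfactory receptor median and 10, 10 and 10 at their 99th percentile. It was 16 in the controls and 17 to 18 in each knockdown when 1 array was left out. Eed on its dimmest probe set changed by 0.16 (Eed shRNA) and 0.0279 (Suz12 shRNA), which reversed its direction. The cause of these differences was not tested. Scaling moved the median of all genes by no more than 0.05. Among the Hox genes named with values, signs of uncalled changes turned in 60 combinations of gene, contrast and setting, over 15 genes, and in 0 of the called ones. RMA values give no signal over background, so the guide bounds what dim probe sets can show.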

Other observations

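Of the 37 Hox genes, 25 (67.6%) had exactly the same value on at least 2 arrays, beside 43.4% of all 34760 probe sets. Hoxa9 had 5 different values over 9 arrays and Hoxc5 had 5, while Hoxa7 and Hoxa10 had 9. Of the 16 Hox genes above the guide on all arrays 9 had a repeated value, and of the other 21 Hox genes 16 had. Where values repeat, the SD between arrays may describe the summary of the probes as well as the samples, which was not tested.

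The most extreme Hox values were spread unevenly over the arrays. Suz12 shRNA replicate 2 held the highest value of 9 Hox genes and the lowest of 4, and Eed shRNA replicate 1 the highest of 7. Eed shRNA replicate 2 held the lowest of 11 and control replicate 2 the lowest of 7.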
